A study of Mus musculus with 8 samples.

Results

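The HoxB cluster of mouse chromosome 11 was examined for chromatin accessibility in embryonic tailbuds. Its members are the 10 genes Hoxb13, Hoxb9, Hoxb8, Hoxb7, Hoxb6, Hoxb5, Hoxb4, Hoxb3, Hoxb2 and Hoxb1, named here from posterior to anterior. The window runs over chromosome 11 from 96.04 to 96.24 Mb in mm9, from Hoxb13 near 96.056 Mb to Hoxb1 near 96.227 Mb. All counted regions in it were taken, which were 3 of the 26620 in the series. Accessibility was measured by ATAC-seq, an assay that cuts and tags accessible DNA with Tn5 transposase, so that open chromatin gives more counts. The 4 Sd/Sd libraries came from embryos homozygous for Danforth's short tail, known as a retrotransposon insertion near Ptf1a on chromosome 2 that shortens the tail, and the 4 WT libraries from embryos with both alleles wild type. Both groups were tailbuds of embryonic day 9.5 on the outbred CD-1 background, with Sd kept in heterozygotes. The mutation was not induced in a chosen cell type, whole tailbuds mix several cell types, and some libraries pool more than 1 embryo. Gene positions in mm9 were not at hand beyond those of Hoxb13 and Hoxb1, so no region is assigned to a gene, and the labelled tissue was not checked against marker loci.

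As background, HOX genes encode homeodomain transcription factors that give cells their position along the body axis. Genes at the Hoxb1 end of the cluster are switched on first and act furthest forward, and Hoxb13, at the other end, comes on last, in the tailbud. Hoxb1 and Hoxb2 act in the hindbrain, where Hoxb1 specifies facial motor neurons, and Hoxb3 and Hoxb4 act in the hindbrain and neck. The central genes Hoxb5 to Hoxb9 pattern neck and thoracic levels, and in mice Hoxb13 limits the growth of the caudal spinal cord and tail vertebrae. Silent HOX clusters carry Polycomb marks, and parts of a cluster open as its genes are activated.

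In the RefSeq gene order (GRCm38.p6) the cluster also holds 2 microRNA genes, Mir196a-1 between Hoxb13 and Hoxb9, and Mir10a beside Hoxb4. Both microRNAs are known to repress HOX mRNAs. Their main products are shown because they belong to the same stretch of chromatin, with the seed (bases 2 to 8) in capitals, from RefSeq (GRCm38.p6, plus strand of chromosome 11).
miR-196a-5p: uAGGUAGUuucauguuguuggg
miR-10a-5p: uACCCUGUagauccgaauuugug
Of the 10 HOX genes, 3 (Hoxb8, Hoxb4 and Hoxb1) had an entry in the RefSeq promoter table. The 250 bases before the start of Hoxb1 are shown because Hoxb1 is the only one of these 3 whose place in the files' build is known, so that its distance to the peaks can be measured. Capitals mark the motif TGATNNAT, the form bound by pairs of PBX and HOX proteins, through which Hoxb1 is known to maintain its own expression in the hindbrain.
Hoxb1: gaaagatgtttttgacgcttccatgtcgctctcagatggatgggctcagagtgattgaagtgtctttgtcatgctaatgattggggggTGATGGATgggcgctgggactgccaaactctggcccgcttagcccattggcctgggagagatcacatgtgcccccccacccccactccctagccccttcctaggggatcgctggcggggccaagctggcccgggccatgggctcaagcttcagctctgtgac
Only the form TGATNNAT was searched, so other forms of a PBX and HOX site are not marked. On both strands, this window held 1 match of TGATNNAT, which begins 162 bases before the start. Over all 32851 RefSeq promoter windows of that length, 7.68% held at least 1. The window of Hoxb8 held 1 match and that of Hoxb4 held 0.

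Depth was similar in both groups. The Sd/Sd libraries held 3090233 to 4180434 counts over all regions and the WT libraries 2873918 to 3451166. No pair of libraries of a genotype was alike within counting noise (chi-square per degree of freedom 2.18 to 3.25). None was thus taken as a copy of another, and each was counted as 1 sample, though this does not show that they are independent. Nothing says which libraries are pools, so the spread between them may be partly technical. Chromosome 11 took a lower share of the counts in Sd/Sd replicate 4 (4.17%) and a higher one in WT replicate 1 (4.59%) than in the other 6 libraries (4.36 to 4.45%).

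The cluster was sparsely called. The counted regions lie within 33.0 kb in its middle, and none lies near either end. From the regions to the approximate position of Hoxb13 the distance is 76.1 kb, and to that of Hoxb1 it is 61.9 kb. The nearest counted neighbours outside are 194.6 kb away on the Hoxb13 side and 338.7 kb away on the Hoxb1 side, where Skap1 is the next protein-coding gene in the RefSeq order. Between neighbouring counted regions of the genome the median distance was 46.9 kb, with 10.97% of distances longer than the first of these and 4.17% longer than the second. A count of 3 in 200 kb is not low for the genome, where the median bin of 200 kb held 2 regions and 21.2% of bins held more than 3. It is low beside the other HOX clusters, which had 8 regions in the 120 kb of HoxA (chromosome 6), 12 in the 140 kb of HoxC (chromosome 15) and 9 in the 140 kb of HoxD (chromosome 2). Per 100 kb this is 1.5 regions in HoxB, against 6.67 in HoxA, 8.57 in HoxC and 6.43 in HoxD, described here without a test. The HoxB window is the longest of these, so the values per 100 kb also depend on where the windows were drawn.

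Peaks that the authors called in each library alone were also few in the window. The 3 counted regions have the bounds of such peaks joined across libraries, so this is no separate observation. Of 16 broad peaks in the window, 6 were in Sd/Sd libraries and 10 in WT libraries. Sd/Sd replicates 1 to 4 had 4, 0, 2 and 0 peaks, and WT replicates 1 to 4 had 2, 5, 2 and 1. Over the whole genome the Sd/Sd replicates had 25809, 21306, 24102 and 30387 peaks, and the WT replicates 22596, 20316, 18682 and 24664. Sd/Sd replicate 4 had the most peaks in the whole genome of any library (30387) and the highest total count, yet no peak in the HoxB window. In HoxA, HoxC, HoxD and the 250 kb before the HoxB window, all 8 libraries had at least 1 peak. No library had a peak within 56.3 kb of the position of Hoxb13 or within 19.4 kb of that of Hoxb1. Hoxb13 thus lay in a stretch with no called peak at this depth, which does not show that its chromatin was closed.

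**Figure D1:**
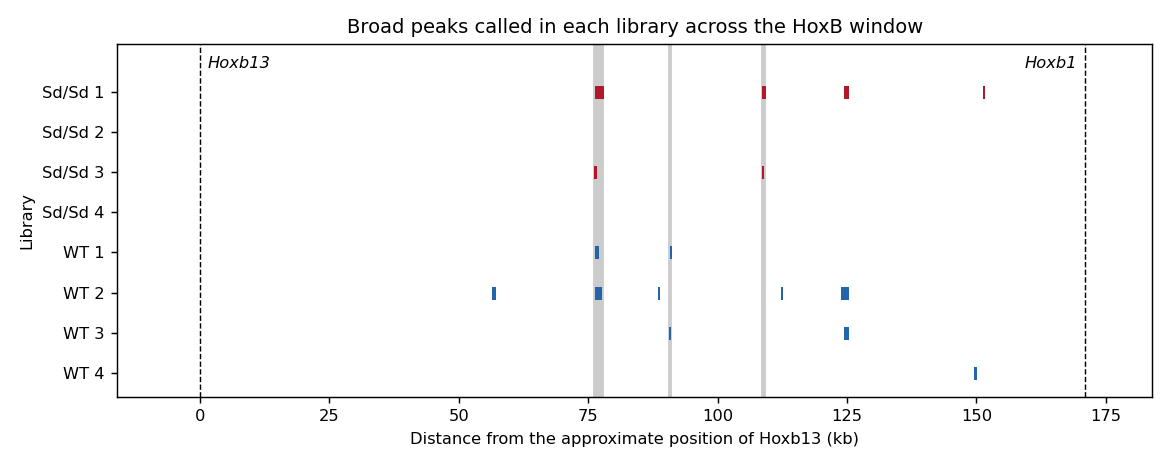
Broad peaks of each library (rows, Sd/Sd in red above WT in blue) by distance in kb from the approximate position of Hoxb13, with the 3 counted regions shaded grey and the positions of Hoxb13 and Hoxb1 dashed. Peaks lie between 56 and 152 kb from Hoxb13, and Sd/Sd replicates 2 and 4 have none.

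When peaks sharing 1 bp or more were joined, the 16 formed 9 intervals. Of these, 3 had the bounds of the counted regions, and these were the 3 with a q of at most 0.05 in at least 2 libraries. The other 6 have no counts and are known only from the peak lists. Nearest to Hoxb13, 56.7 kb from it, chr11:96112345-96112980 was called in WT replicate 2 alone. That library alone also had chr11:96144574-96144773 and chr11:96168196-96168455. A wider interval towards Hoxb1, chr11:96179853-96181244, was called in Sd/Sd replicate 1 (q = 0.0175), WT replicate 2 (q = 0.0545) and WT replicate 3 (q = 0.0629), so only 1 of its 3 calls reached 0.05. At the Hoxb1 end, chr11:96207173-96207557 was called in Sd/Sd replicate 1 and chr11:96205491-96205836 in WT replicate 4, both with a q above 0.05. By genotype, 2 intervals were called only in Sd/Sd libraries, 2 in both and 5 only in WT libraries, and 5 of the 9 rested on a single library. The same shares over the joined peaks of the whole genome are not given here, so these counts show no preference for a genotype.

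The peaks were weak. Their fold enrichment, the peak caller's own value, ran from 2.75 to 4.09, and 3 of the 16 stood above the median of their own library's list.

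Of the 3 counted regions, the one nearest to Hoxb13 is chr11:96132116-96133814, 77.0 kb from the position of Hoxb13 and 94.0 kb before that of Hoxb1. It is wide, at 1699 bp against a median of 874 bp, and its level was low for its width, at 19.5 CPM per kb (counts scaled to the library total, per kb) against a median of 32.9 CPM per kb over all regions. It was called as a peak in Sd/Sd replicates 1 and 3 and in WT replicates 1 and 2, and its fold enrichment in these calls ran from 2.80 to 3.42. The Sd/Sd replicates 1 to 4 had 38.0, 23.3, 36.8 and 21.8 CPM, and the WT replicates 1 to 4 had 41.1, 43.4, 29.2 and 31.0 CPM. Within Sd/Sd the libraries fell into a higher and a lower pair, and the higher pair lay inside the range of WT. The mean was 30.0 ± 8.63 CPM in Sd/Sd and 36.2 ± 7.10 CPM in WT (SD, n = 4 each). The log2 fold change of Sd/Sd over WT was -0.27 (SE 0.15, 95% interval -0.57 to 0.03) and did not pass the test (edgeR quasi-likelihood test, adjusted p = 0.846 over all regions).

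The middle region, chr11:96146667-96146989, lies 90.8 kb from the position of Hoxb13. It is narrow, at 323 bp, and had the highest level per kb of the 3, at 35.7 CPM per kb. On this scale 58.7% of all regions were below it, and 8.65% were by mean CPM without scaling to width. Peaks there were called in WT replicates 1 and 3 alone, with fold enrichments of 3.84 and 4.09, the strongest calls of the window. No source used here gives how the counted regions were chosen, and whether a choice through WT peaks bears on the difference between genotypes was not tested. The Sd/Sd replicates 1 to 4 had 12.2, 6.80, 10.9 and 7.18 CPM, and the WT replicates 1 to 4 had 17.7, 11.9, 15.7 and 9.96 CPM. Sd/Sd replicates 2 and 4 were below every WT library, while Sd/Sd replicates 1 and 3 were above WT replicate 4. The mean was 9.26 ± 2.69 CPM in Sd/Sd and 13.8 ± 3.501 CPM in WT (SD, n = 4 each). The log2 fold change was -0.57 (SE 0.26, 95% interval -1.08 to -0.06), the largest of the 3 in size. Over all regions it did not pass (edgeR adjusted p = 0.802), and its unadjusted p was 0.0294. In linear terms the level in Sd/Sd was 0.675 times that of WT, with an interval from 0.474 to 0.961 times.

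The region nearest to Hoxb1, chr11:96164499-96165134, is 636 bp wide, 108.8 kb from the position of Hoxb13 and 62.2 kb before that of Hoxb1. Its level, 16.3 CPM per kb, was lower than that of all but 0.8% of regions. Peaks there were called in Sd/Sd replicates 1 and 3 alone (fold enrichments of 3.27 and 2.98). The Sd/Sd replicates 1 to 4 had 13.9, 5.18, 16.0 and 7.89 CPM, from 50, 16, 53 and 33 counts. The WT replicates 1 to 4 had 10.4, 11.6, 13.2 and 4.98 CPM, from 36, 35, 38 and 17 counts. Sd/Sd replicate 2 and WT replicate 4 were alike low, and the groups overlapped over most of their range. The mean was 10.7 ± 5.05 CPM in Sd/Sd and 10.1 ± 3.57 CPM in WT (SD, n = 4 each). No direction can be given, since the log2 fold change of 0.11 (SE 0.28, 95% interval -0.44 to 0.66, edgeR adjusted p = 0.986) turned negative without Sd/Sd replicate 1 (-0.04), Sd/Sd replicate 3 (-0.13) or WT replicate 4 (-0.12).

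**Figure D2:**
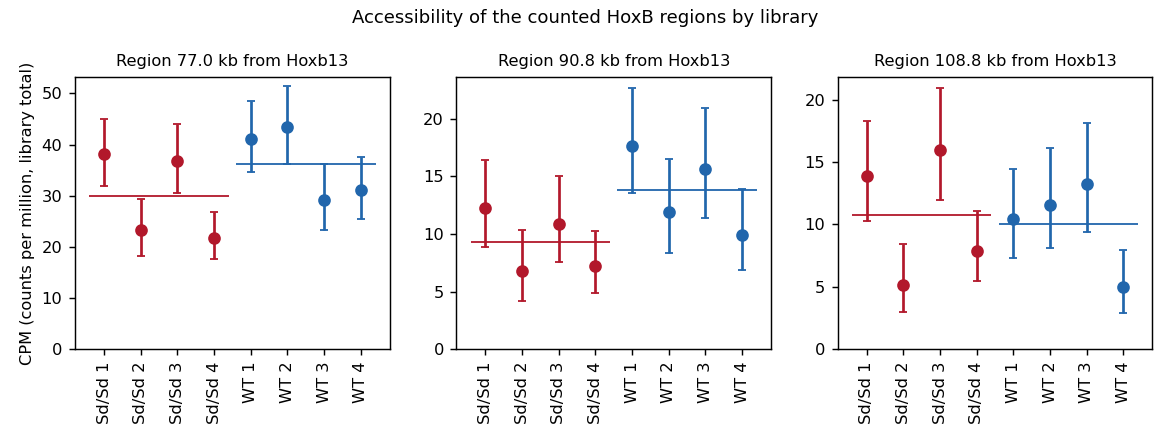
CPM of each counted HoxB region in each library (Sd/Sd in red, WT in blue), with bars for the 95% Poisson interval of counting error and lines at the group means. In every panel the Sd/Sd libraries overlap the WT libraries, and Sd/Sd replicates 2 and 4 are below Sd/Sd replicates 1 and 3.

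None of the 3 regions passed an adjusted p of 0.05 (edgeR), where 0.0188% of all regions did. At an unadjusted p under 0.05 the count was 1 of 3, lower in Sd/Sd, beside 3.09% of all regions that were lower at that level, 2.98% that were higher and 6.06% in either direction. Among the 1309 other regions of chromosome 11 the lower share was 7.49% and the higher share 2.22%. The HoxB region at that level is the middle one, with peaks in WT libraries alone, and it missed this level without Sd/Sd replicate 2 (log2 fold change -0.45), Sd/Sd replicate 4 (-0.46), WT replicate 1 (-0.42) or WT replicate 3 (-0.51). The region nearest to Hoxb13 reached it without Sd/Sd replicate 1 (-0.41), Sd/Sd replicate 3 (-0.38), WT replicate 3 (-0.36) or WT replicate 4 (-0.34), and shrank without Sd/Sd replicate 2 (-0.18), Sd/Sd replicate 4 (-0.14), WT replicate 1 (-0.20) or WT replicate 2 (-0.18). The genotypes were separated without overlap in 0 of 3, beside 3.20% of all regions. The median log2 fold change was -0.27 over the 3 regions, -0.05 over the other regions of chromosome 11 and 0.0006 over all 26620. By sign, 2 of the 3 were lower in Sd/Sd, beside 63.1% of the other regions of chromosome 11 and 49.9% of all regions. In the 250 kb before the window, on the Hoxb13 side, all 4 counted regions were lower in Sd/Sd by sign, from -0.35 to -0.05, and none passed (edgeR adjusted p of at least 0.826). The 250 kb after it held no counted region and no peak.

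The other HOX clusters were measured in the same libraries. Lower values in Sd/Sd were found by sign at 6 of 8 regions of HoxA, 9 of 12 of HoxC and 9 of 9 of HoxD, beside the 49.9% of all regions, with median log2 fold changes of -0.08, -0.07 and -0.19. The shares over the other regions of chromosomes 6, 15 and 2 are not given here. At an unadjusted p under 0.05 there were 0 of 8 regions in HoxA, 2 of 12 in HoxC and 2 of 9 in HoxD. All of these were lower in Sd/Sd, beside 3.09% of all regions that were lower at that level. None passed after adjustment (edgeR adjusted p of at least 0.802). Single regions there ran from -0.40 (in HoxC) to 0.07 (in HoxA). Whether HoxB differs from them was not tested.

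**Figure D3:**
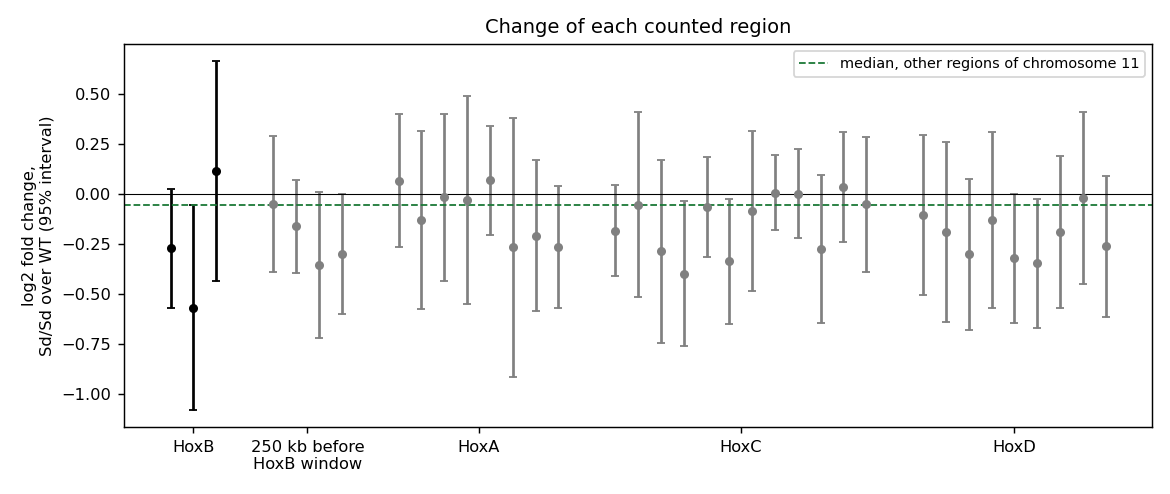
Log2 fold change of Sd/Sd over WT with its 95% interval for each counted region of HoxB (black, from Hoxb13 to Hoxb1), of the 250 kb before it and of the other HOX clusters (grey), with the median of the other regions of chromosome 11 dashed. Most points lie below 0, and most intervals include it.

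In the HoxB sum, the highest and lowest libraries of each genotype lay further apart than the genotype means did. Summed over the 3 regions, the Sd/Sd replicates 1 to 4 had 64.2, 35.3, 63.6 and 36.8 CPM, and the WT replicates 1 to 4 had 69.3, 66.9, 58.1 and 46.0 CPM. The lowest sum came from 109 counts (95% Poisson interval 29.0 to 42.5 CPM) and that of Sd/Sd replicate 1 from 231 (56.1 to 73.0 CPM), so the gap within Sd/Sd was larger than counting error. The mean was 49.98 ± 16.1 CPM in Sd/Sd and 60.1 ± 10.5 CPM in WT (SD, n = 4 each), a ratio of 0.832, given without a test since the members were chosen with results known. As a share of the counts of chromosome 11 the ratio was 0.859. Leaving out 1 library at a time moved it between 0.753 and 0.914.

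On the log2 scale the SD within a genotype was 0.35, 0.37 and 0.64 for the 3 regions from Hoxb13 to Hoxb1, against a median of 0.21 over all regions. At the middle region the log2 fold change (-0.57) was larger in size than this SD. At the regions nearest to Hoxb13 (-0.27) and to Hoxb1 (0.11) it was smaller. The middle region had peaks in WT replicates 1 and 3 alone, the libraries of its highest CPM. Whether a choice of that region through these peaks bears on its change was not tested. The region nearest to Hoxb1 varied more than 99.7% of all regions, and counting error is larger at its low counts than at most regions. Its peaks were called in Sd/Sd replicates 1 and 3 alone, the libraries of its highest CPM. Whether a choice of the region through these peaks bears on its spread was not tested. The ratio of the highest to the lowest library was 1.96 for the HoxB sum, against 1.48 for the 250 kb before the window, 1.40 for HoxA, 1.29 for HoxC and 1.43 for HoxD, where more counts stand behind each sum.

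Those windows were low in some of the same libraries and not in others. In the 250 kb before the window the Sd/Sd replicates 1 to 4 had 143.0, 113, 125 and 100.2 CPM, and the WT replicates 1 to 4 had 148, 143.0, 134 and 131 CPM. HoxD had 196, 154, 163 and 144 CPM in the Sd/Sd replicates and 199, 207, 203 and 165 CPM in the WT replicates. In both, Sd/Sd replicates 2 and 4 were the lowest Sd/Sd libraries, as in HoxB. HoxA had 179, 155, 164 and 133 CPM in the Sd/Sd replicates and 187, 179.8, 146 and 154 CPM in the WT replicates. Sd/Sd replicates 2 and 4 were again the lowest Sd/Sd libraries there, and WT replicates 3 and 4 were also below Sd/Sd replicate 2. HoxC had 476, 431, 396 and 379 CPM in the Sd/Sd replicates and 488, 485, 442 and 391 CPM in the WT replicates, so Sd/Sd replicate 3 and WT replicate 4 were below Sd/Sd replicate 2. Over the 8 libraries, which share their depth and composition across windows, the HoxB sum correlated on the log2 scale at a Pearson's r of 0.87 with the 250 kb before it, 0.84 with HoxD, 0.76 with HoxA and 0.65 with HoxC. With the share of counts on chromosome 11 r was 0.71, with the total count -0.33, and with the first principal component of all regions (18.8% of the variance) -0.80. The scores on that component were -7.94, 14.5, 6.48 and 32.5 in Sd/Sd replicates 1 to 4 and -8.31, -22.1, -19.4 and 4.30 in WT replicates 1 to 4. The part of these library differences in the HoxB values was not tested.

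**Figure D4:**
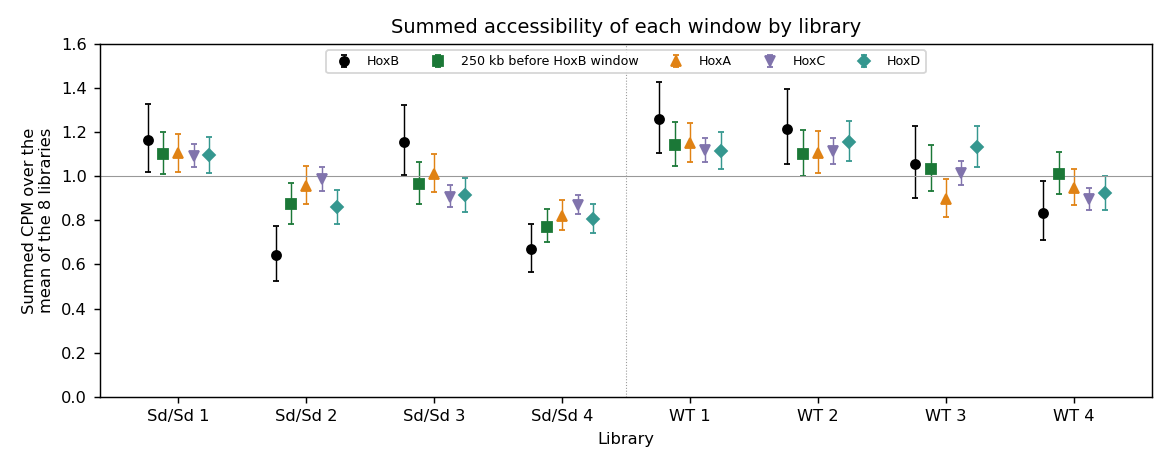
Summed CPM of each window divided by its mean over the 8 libraries, by library (Sd/Sd left, WT right), with bars for the 95% Poisson interval. HoxB (black circles) is lowest in Sd/Sd replicates 2 and 4, where the other windows are also below or near their mean.

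The counted regions elsewhere whose CPM followed the HoxB sum most closely over the 8 libraries, picked as the highest of 26617, were 1 on chromosome 2 (105040161 to 105040696, r = 0.98), 2 on chromosome 7 (31449852 to 31450157, r = 0.97, and 53151738 to 53152937, r = 0.96), 1 on chromosome 19 (44340682 to 44341948, r = 0.96) and 1 on chromosome 3 (52000028 to 52000597, r = 0.96). An r above 0.9 was reached by 78 of 26617 regions. The region on chromosome 2 had 18.6, 11, 17.5 and 11.2 CPM in Sd/Sd replicates 1 to 4 and 18.8, 20.2, 18.4 and 14.9 CPM in WT replicates 1 to 4. Like the HoxB sum, it was low in Sd/Sd replicates 2 and 4, and in WT replicate 4 among the WT libraries.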

How the data were processed

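ATAC-seq libraries of tailbuds (4 Sd/Sd, 4 WT) were grouped by the labels. Per the submitters' processing notes, the build was mm9, and among the tools were bedtools 2.26.0, MACS2 2.1.1.20160309 and BWA 0.7.15-r1140. For their settings, filters and any Tn5 shift, the sources used here give nothing. The authors deposited whole-number counts per region over 1 region set shared by all libraries, and MACS2-style broad peaks per library with their fold enrichment (ratio), score, −log10 p and −log10 q. What 1 count stands for (read, fragment or cut) is not stated.

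CPM are counts over the library total. Genotypes were compared over all 26620 regions with edgeR 4.0.16 in R 4.3.3 (quasi-likelihood, robust, TMM, two-sided, Benjamini-Hochberg), checked on simulated counts for recovered and for false calls. The low-count filter removed 0 regions. Alternatives used DESeq2 1.42.0, limma 3.58.1 and other choices. Python 3.11.15 and SciPy 1.17.1 gave exact Poisson intervals, which cover counting error only. Gene order and sequences come from RefSeq (GRCm38.p6), used for names and letters only, since the build differs. Each of the 3 regions is named, with the 5 regions elsewhere of highest correlation with the HoxB sum (log2 of CPM plus 0.5). The window, members, motif and lists were chosen with earlier results of these data known. The labels do not say whether replicate numbers pair the libraries, so the main fit did not use them.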

Additional observations from a re-analysis of the deposited data

How the results depend on the processing

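The log2 fold change of the region nearest to Hoxb13 stayed negative in all 15 alternatives run (-0.41 to -0.14), as did that of the middle region in its 14 (-0.73 to -0.42), and neither passed in any (lowest adjusted p 0.535 and 0.512). The region nearest to Hoxb1 changed sign in 3 of 14 (to -0.04 when Sd/Sd replicate 1 was left out, -0.13 for Sd/Sd replicate 3 and -0.12 for WT replicate 4), within a range of -0.13 to 0.33. With 1 library left out, HoxB regions at an unadjusted p under 0.05 numbered 0 to 2. With a mean count of at least 50 they numbered 0, because this filter removed the 2 narrower regions. The median over the HoxB regions was the value of the region nearest to Hoxb13 in each of these, so it adds nothing to it. Broad peaks in the window numbered 16, 12 with a q of at most 0.05 and 0 with a q of at most 1e-05, and library and region pairs with a peak numbered 8, or 6 with a peak over most of the region (0.5 or more of its length). A window 20 kb wider or narrower at each end held the same 3 regions. Over all regions, 5 calls became 3 with DESeq2, 15 in edgeR without robust variance, 9 with limma and voom weights, and 2 to 19 with 1 library left out. With the replicate number as a block there were 23, and the block changed no HoxB call (adjusted p for the middle region 0.671 in edgeR). Same-numbered libraries deviated together little, if at all (correlations -0.0012 to 0.091), and 2 of 8 libraries correlated best with their own number. These values do not settle whether the libraries were paired. The causes of these changes were not tested. The 2 narrower regions had mean counts of 38.4 and 34.8 per library. The 95% interval of their change reached 0.51 and 0.55 log2 units to each side, against a median of 0.33 over all regions. Their SD within a genotype (0.37 and 0.64, log2) was also above the median of 0.21 over all regions. The parts of depth and of spread between libraries in these intervals were not tested.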
